A study of Mus musculus with 96 samples.

Results

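This account describes 7 mouse genes at the nuclear end of the canonical Wnt pathway, in embryonic stem cells (ESCs) in which the Polycomb protein RYBP or one of its partners was removed, changed or induced. Lef1, Tcf7, Tcf7l1 and Tcf7l2 encode the TCF and LEF factors, Axin2 and Sp5 are target genes that feed back on the pathway, and Ctnnb1 encodes β-catenin. They were taken by symbol from the 37620 genes that every count table lists, and all 7 were found and passed the filter on low counts in each of the 7 tables. They were chosen by their role in the pathway with the RNA counts and peaks described here in view, and no threshold on a value was used. Calls and adjusted p-values below therefore set the size of a difference against the spread between libraries, and are not independent support for a response of the family.

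The study holds 96 samples of RNA-seq, ChIP-seq and ChIP inputs from mouse ESC lines, of which 26 RNA libraries in 13 groups and 14 lists of ChIP-seq peaks are used here. All cells were grown in serum with LIF. In the R7.15 line, whose Rybp gene is floxed (RYBPfl/fl Rosa26::CreERT2), Rybp-/- ESCs had received 5 µM 4-hydroxytamoxifen (4-OHT) for 4 days and Rybp+/+ ESCs had not. The same line with 4-OHT and with overexpressed wild-type RYBP (WT.RYBP) or with a RYBP carrying the deletion labelled RYBP.21aa (RYBP phase disruption) formed a second pair, in which the controls also carry the floxed gene and the treatment. R1 ESCs carried an empty vector (shEV), an shRNA against Rybp (shRybp) or an shRNA against Wdr5 (shWdr5), which encodes a subunit of MLL and SET1 complexes. A further R1 pair was WT ESC and a line labelled TF-AA mutation, for which the labels name no mutated gene. J1 ESCs with a Tet on.RYBP transgene received vehicle or doxycycline (DOX), and the rTRS line with a DOX-induced Rybp_Stat3 integration received DOX or no treatment (NTC). For ChIP-seq, R1 ESCs with that integration are labelled Tet.Rybp.Stat3, without (DOX-) or with DOX (DOX+), and RING1B was also profiled in shEV cells and in cells with an shRNA against Stat3 (shStat3). Each RNA group had 2 libraries, and nothing states that they came from separate cultures, so the tests measure only the spread between these libraries, which may be technical. In the tables of the TF-AA and the phase disruption pairs, the control columns are headed only WT and were matched to WT ESC and to WT.RYBP because no other group was left. The vehicle libraries of Tet on.RYBP cells are headed NTC in their table, the second rTRS DOX library is headed S5-DOX_R2 and the second phase disruption library RphaseMut_R2, and each was matched in the same way.

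The canonical Wnt pathway acts on transcription through β-catenin, which is degraded in resting cells by a complex built on Axin and APC and accumulates when a Wnt ligand binds Frizzled and LRP receptors. TCF and LEF proteins bind DNA at Wnt response elements, where they repress with Groucho (TLE) corepressors and activate once β-catenin joins them. In ESCs, TCF7L1 is known as a repressor of pluripotency genes that β-catenin relieves, TCF7 and LEF1 as the more activating members, Axin2 as the negative feedback gene read most often as a sign of pathway activity, and Sp5 as a direct target that encodes a zinc finger repressor.

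The sequences shown here are those of the 2 feedback genes and of Lef1 and Tcf7, the factors whose levels varied most alike, because TCF and LEF factors recognise DNA with the core CTTTG. They were read 5′ to 3′ from the NCBIM37 (mm9) genome with the GENCODE M1 annotation, and capitals mark CTTTG on either strand, so that it also appears as CAAAG. Each upstream stretch holds the 250 bases before the annotated gene start and no exon base. The Sp5 stretch lies at chr2:70312730-70312979 on the plus strand, the Axin2 stretch at chr11:108781413-108781662 on the plus strand, the Lef1 stretch at chr3:130813139-130813388 on the plus strand and the Tcf7 stretch at chr11:52096682-52096931 on the minus strand. The Axin2 intron stretch, at chr11:108782508-108782649 on the plus strand, is the part of the first intron around the summit of the STAT3 peak found with DOX.
Sp5 upstream: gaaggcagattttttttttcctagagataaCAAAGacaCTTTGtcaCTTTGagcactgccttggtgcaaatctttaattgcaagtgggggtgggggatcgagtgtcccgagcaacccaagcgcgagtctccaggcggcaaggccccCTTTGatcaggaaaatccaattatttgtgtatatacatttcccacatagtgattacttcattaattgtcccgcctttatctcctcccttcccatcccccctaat
Axin2 upstream: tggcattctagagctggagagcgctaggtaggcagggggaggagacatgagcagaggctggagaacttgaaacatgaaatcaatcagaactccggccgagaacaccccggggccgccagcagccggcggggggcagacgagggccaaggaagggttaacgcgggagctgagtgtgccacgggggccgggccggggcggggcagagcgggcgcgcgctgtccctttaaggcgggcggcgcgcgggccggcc
Axin2 intron 1: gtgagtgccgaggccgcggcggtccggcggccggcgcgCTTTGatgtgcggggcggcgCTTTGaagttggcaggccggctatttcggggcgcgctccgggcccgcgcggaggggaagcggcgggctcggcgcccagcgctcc
Lef1 upstream: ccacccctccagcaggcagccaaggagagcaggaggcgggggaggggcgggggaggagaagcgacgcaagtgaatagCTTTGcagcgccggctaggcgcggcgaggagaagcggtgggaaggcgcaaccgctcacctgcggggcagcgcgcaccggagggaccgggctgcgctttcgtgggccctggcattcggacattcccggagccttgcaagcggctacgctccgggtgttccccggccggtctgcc
Tcf7 upstream: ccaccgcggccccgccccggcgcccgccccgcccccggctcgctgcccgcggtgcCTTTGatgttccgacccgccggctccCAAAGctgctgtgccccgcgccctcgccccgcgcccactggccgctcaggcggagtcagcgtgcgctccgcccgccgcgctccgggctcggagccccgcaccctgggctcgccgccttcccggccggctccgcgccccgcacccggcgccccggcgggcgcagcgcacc
The Sp5 stretch holds 4 cores, whose first bases lie at -220, -212, -204 and -104 from the gene start, and it is AT-richer (46.0% GC) than the others. Axin2 has no core in its upstream stretch (69.2% GC) and 2 in its first intron, at 883 and 903 bases after the gene start. Lef1 has 1 core at -173 (71.2% GC) and Tcf7 has 2, at -195 and -169 (83.6% GC). The longer form CTTTGAT, which contains CTTTG, occurs once each in the Sp5, Tcf7 and Axin2 intron stretches.

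These letters are common. CTTTG on either strand occurs in 52.6% of 22367 windows from 250 bases before to 50 after a coding gene's start, CTTTGAT in 3.46% and TTCNNNGAA, the palindromic core that STAT factors recognise, in 7.94%. Of the 33 such windows at the coding start sites of the 7 genes, 26 hold CTTTG, 4 hold CTTTGAT (Tcf7, Axin2 and Sp5) and 1 holds TTCNNNGAA (Axin2), and windows of 1 gene overlap. A match describes the sequence and does not show a bound site.

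Library depth and cell identity were checked first. Counts on genes ran from 14512857 to 81049618 per library, and the fewest reads on any of the 7 genes in a library were 21, so only Lef1 and Sp5 were at times thinly covered. All 9 ESC markers were detected in every table and summed to 4033 to 8147 CPM, the counts scaled to a common library size. Marker sums, here and below, follow the most abundant genes of a list and do not show that the whole list moved. The depleted or induced gene moved with its label in most pairs, with Rybp at 110 and 110 CPM in Rybp+/+ and 24.8 and 25.0 CPM in Rybp-/- libraries, 85.7 and 86.4 CPM in shEV and 35.8 and 36.6 CPM in shRybp, and 135 and 145 CPM with vehicle and 522 and 535 CPM with DOX in Tet on.RYBP cells. Wdr5 stood at 350 and 343 CPM in shEV and 60.0 and 58.2 CPM in shWdr5 libraries. The rTRS pair is the exception, with Rybp at 113 and 110 CPM in NTC and 102 and 99.8 CPM in the libraries labelled DOX. Stat3, the other gene of the integration, had 159 and 172 against 191 and 188 CPM and was called higher (log2 fold change 0.20, adjusted p = 0.0259 by edgeR). The induced integration is thus seen as a small rise of Stat3 and not as a higher Rybp count, and the direction of every rTRS result rests mainly on the labels. In bulk RNA, fewer cells of a type and less RNA per cell cannot be told apart.

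Levels per length of transcript give the order of the 7 genes in undisturbed cells. In Rybp+/+ ESCs, Ctnnb1 had a mean of 166 CPM per kb, Tcf7 35.9, Tcf7l1 35.6, Lef1 3.63, Axin2 2.51, Tcf7l2 0.934 and Sp5 0.254 CPM per kb. Tcf7 (35.8 and 36.1) and Tcf7l1 (35.3 and 36.0) overlapped between the 2 libraries, and every other neighbouring pair was separated in both. Ctnnb1 and Tcf7 headed the order in the controls of all 7 tables, in which shEV stands in 2, with 166 to 201 and 17.2 to 35.9 CPM per kb. Lef1 and Sp5 varied most between controls. Lef1 ran from 0.132 CPM per kb in WT ESC to 3.66 in WT.RYBP cells, and Sp5 from 0.254 in Rybp+/+ to 3.96 in shEV cells. These tables were normalized separately and differ in line and depth, so their levels were not tested against each other.

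**Figure D1:**
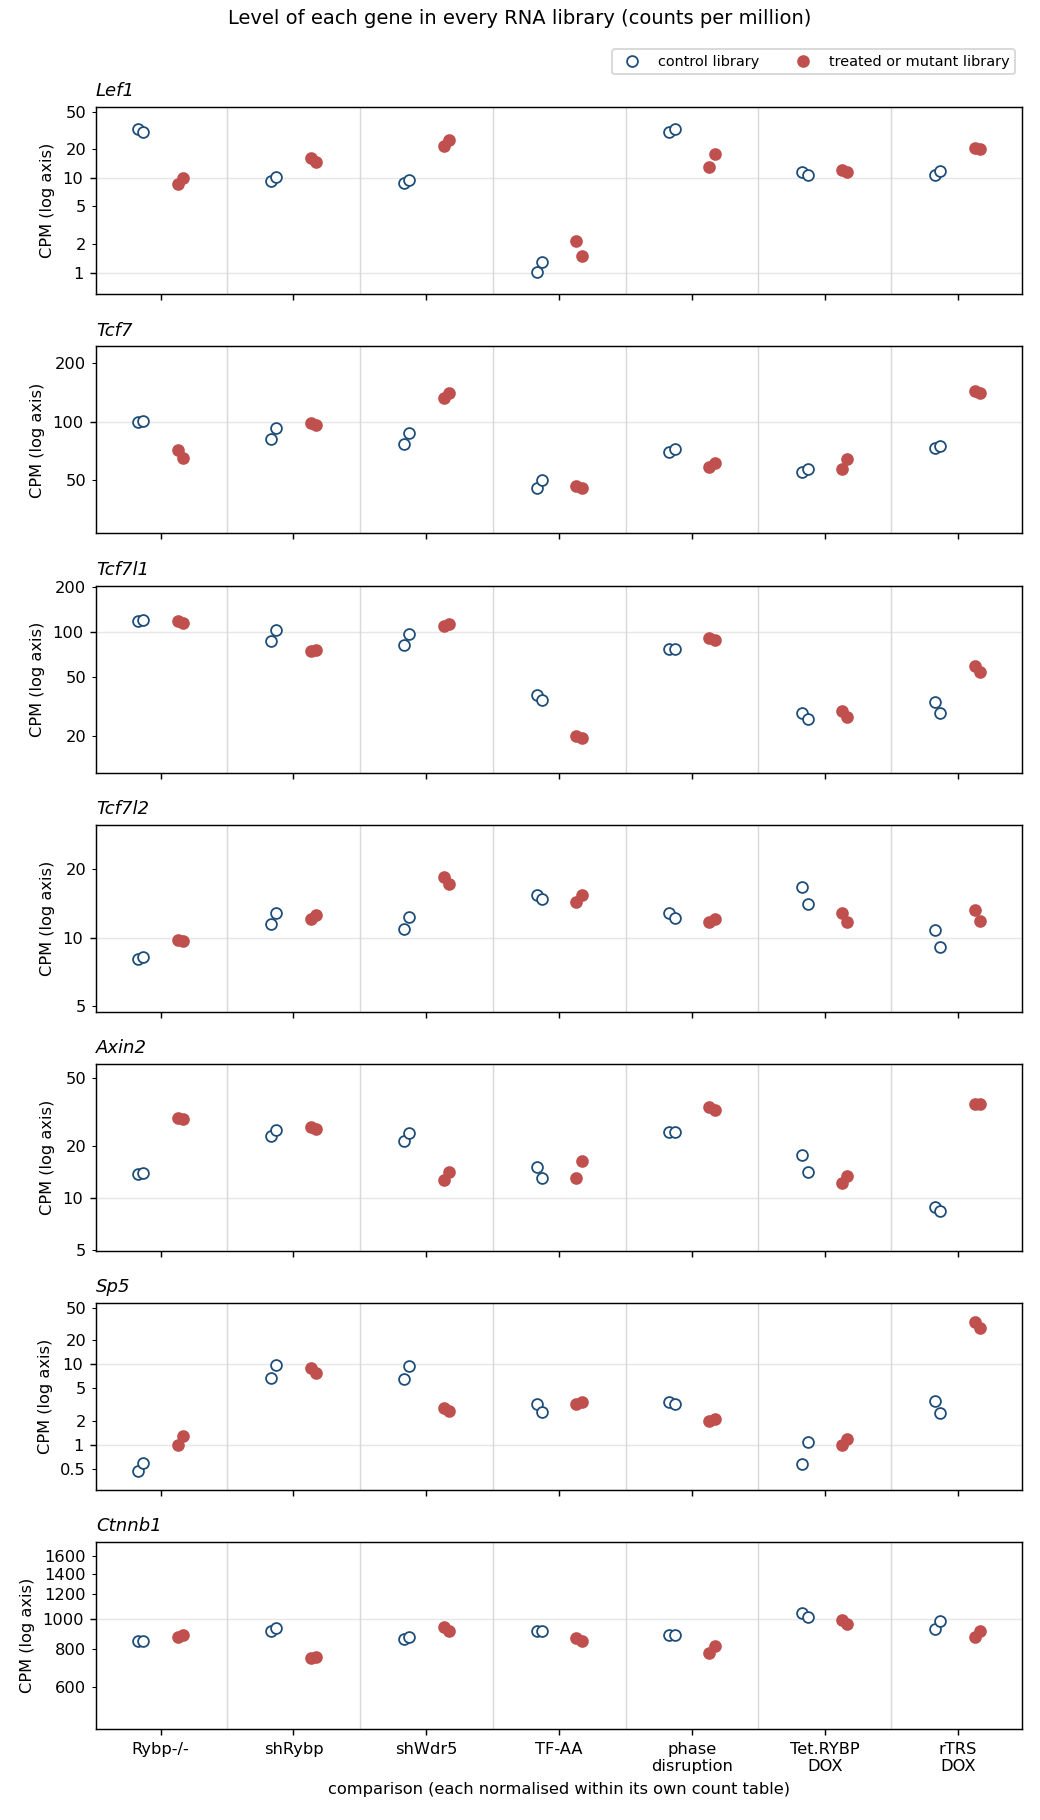
Level of each of the 7 genes in every RNA library, in CPM on a log axis, with control libraries as open and treated or mutant libraries as filled circles, for the 7 comparisons from left to right. Lef1 falls from 32.7 and 30.2 to 8.57 and 10.0 CPM in Rybp-/- ESCs, Sp5 climbs from 3.50 and 2.48 to 33.5 and 28.2 CPM in the libraries labelled rTRS DOX, and Ctnnb1 stays between 744 and 1042 CPM in every library.

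Loss of Rybp by knockout in R7.15 ESCs was compared first, since it asks what the TCF and LEF genes do when Rybp is deleted. Only the Rybp-/- cells had received 4-OHT, so that treatment and the loss of Rybp cannot be told apart in this pair. Lef1 and Tcf7 fell while Axin2, Sp5 and Tcf7l2 rose, and Tcf7l1 and Ctnnb1 passed no test. Lef1, the LEF factor, had 32.7 and 30.2 CPM in Rybp+/+ and 8.57 and 10.0 CPM in Rybp-/- libraries. Its level in Rybp-/- ESCs was thus 0.296 of that in the control (log2 fold change -1.75, standard error, SE, 0.08). Its adjusted p was 1.05e-18, from the quasi-likelihood test of edgeR and the Benjamini-Hochberg method, as were all adjusted p-values here. Tcf7, which encodes TCF1, had 99.9 and 101 CPM against 71.6 and 65.3 CPM. Both groups stood apart, and the log2 fold change was -0.55 (SE 0.04, adjusted p = 2.43e-12). Tcf7l1 had 117.2 and 119.5 CPM against 117.2 and 114.6 CPM, so the groups were not separated. Tcf7l2, which encodes TCF4, went from 8.05 and 8.26 to 9.79 and 9.65 CPM (log2 fold change 0.25, SE 0.10, adjusted p = 0.0358), a call that was lost without any 1 of the 4 libraries, with adjusted p-values from 0.0724 to 0.134. In every such fit without 1 library, here and below, 1 group is a single library that is assumed to vary like the 2 of the other group.

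Both feedback genes rose about 2-fold in Rybp-/- ESCs. Axin2 had 13.7 and 13.9 CPM in Rybp+/+ and 29.0 and 28.9 CPM in Rybp-/- libraries. The replicates differed by far less than the groups (fold 2.09, log2 fold change 1.07, SE 0.07, adjusted p = 1.28e-14). Sp5 was barely detected, with 37 and 48 reads or 0.471 and 0.597 CPM in Rybp+/+ and 77 and 99 reads or 1.01 and 1.29 CPM in Rybp-/- libraries. Its log2 fold change was 1.10 (SE 0.35, adjusted p = 0.00927), and the call was lost without Rybp+/+ replicate 1 (0.94, adjusted p = 0.0503) or without Rybp-/- replicate 2 (0.92, adjusted p = 0.114). Ctnnb1, with 845 and 847 against 873 and 885 CPM, had a log2 fold change of 0.06 (adjusted p = 0.0976). In all, 3 of the 7 genes were called higher and 2 lower, beside 22.8% higher and 22.7% lower (45.5% in all) of the 16955 genes tested in this comparison.

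Other genes of the pathway in the knockout were read from a list of 103 genes that holds none of the 7. Of the 93 tested, 35 were higher and 18 lower, or 57.0%, and their median log2 fold change was 0.16. Wnt ligands contributed 7 higher and 0 lower of 14 tested, and the other direct or feedback targets 7 higher and 0 lower of 8. The group of cytoplasmic transduction and destruction complex genes, which holds more than the complex that degrades β-catenin, had 2 higher and 8 lower of 15. Cdx1, a caudal homeobox gene that Wnt activates in the embryo, rose from 1.03 and 0.982 to 4.71 and 5.73 CPM (log2 fold change 2.37). Lgr6, a receptor for R-spondins, had a log2 fold change of 1.61 and Sfrp5, a secreted Wnt inhibitor, one of 1.55, both from under 1 CPM. Summed markers of fibroblasts, the usual feeder cells, moved with these results, from 57.2 and 56.4 to 114 and 120 CPM with 6 of 6 markers higher. Those of primitive endoderm went from 7.81 and 9.06 to 16.7 and 15.4 CPM with 3 of 6 higher and 0 lower, and those of trophectoderm from 106 and 105 to 124 and 127 CPM with 5 of 6 higher and 0 lower. Tfap2c made up most of the trophectoderm sum, with 97.4 and 96.7 CPM in Rybp+/+ and 110 and 114 CPM in Rybp-/- libraries. ESC markers summed to 5847 and 5923 against 6415 and 6437 CPM, with 6 of 9 higher and 2 lower. The part of these cells in the result was not tested.

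Rybp knockdown in R1 ESCs addresses the same loss by another means and in another line. Lef1 and Tcf7 rose, Tcf7l1 and Ctnnb1 fell, and Axin2, Sp5 and Tcf7l2 passed no test. Lef1 had 9.30 and 10.1 CPM in shEV and 16.2 and 14.7 CPM in shRybp libraries. This is a fold of 1.59 (log2 fold change 0.67, SE 0.11, adjusted p = 4.99e-05). Tcf7 had 81.3 and 92.8 CPM in shEV and 98.2 and 96.3 CPM in shRybp libraries, a small rise (log2 fold change 0.16, adjusted p = 0.0356) that was lost without shEV replicate 1 (0.06, adjusted p = 0.465) or without shRybp replicate 1 (0.14, adjusted p = 0.157) or replicate 2 (0.17, adjusted p = 0.0965). Tcf7l1 had 86.7 and 103 CPM against 73.7 and 75.8 CPM. Both shRybp libraries lay under both controls (log2 fold change -0.34, SE 0.07, adjusted p = 0.000325). Ctnnb1 went from 915 and 931 to 744 and 753 CPM (log2 fold change -0.30, SE 0.04, adjusted p = 2.52e-06).

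The feedback genes gave no call in the knockdown. Axin2 had 23.0 and 24.9 CPM in shEV and 25.9 and 25.0 CPM in shRybp libraries (log2 fold change 0.09, SE 0.08, adjusted p = 0.382). Sp5 had 6.75 and 9.87 CPM against 8.91 and 7.76 CPM, with the libraries of both groups interleaved. Tcf7l2 also overlapped, at 11.5 and 12.9 against 12.1 and 12.6 CPM. With 2 genes higher and 2 lower, 4 of the 7 were called, beside 52.7% of the 16538 genes tested (26.8% higher and 26.0% lower). On the list of 103 genes, 37 of the 95 tested were higher and 23 lower (63.2%, median log2 fold change 0.16). Wnt ligands had 12 higher and 0 lower of 16 tested and a median log2 fold change of 2.02. The other direct or feedback targets had 2 higher and 3 lower of 9, and the nuclear partners 1 higher and 6 lower of 14. Wnt4 rose from 0.278 and 0.217 to 8.24 and 7.53 CPM (log2 fold change 4.97), Wnt7b from 2.07 and 2.04 to 17.1 and 21.9 CPM (3.24) and Wnt3, the ligand that starts gastrulation in the mouse, from 0.708 and 0.598 to 4.87 and 4.82 CPM (2.88). ESC markers summed to 8002 and 8147 CPM in shEV and 7217 and 7232 CPM in shRybp libraries, with 4 of 9 higher and 4 lower, and those of primitive endoderm to 10.1 and 13.9 against 25.8 and 29.3 CPM with 5 of 6 higher. Trophectoderm markers went from 91.0 and 101 to 153.5 and 152 CPM with 4 of 6 higher and 1 lower, and Tfap2c alone from 73.6 and 81.1 to 125 and 122 CPM. Fibroblast markers went from 18.6 and 18.8 to 31.9 and 30.7 CPM with 3 of 3 tested higher. Dcn had 0 reads, Col3a1 1 and 0 against 0 and 3 reads, and Postn 0 and 0 against 4 and 0 reads. Neural markers went from 20.1 and 21.4 to 44.1 and 49.0 CPM with 1 of 2 tested higher and 1 lower. Nes carried this rise (14.3 and 15.4 to 41.4 and 45.3 CPM), and Pax6 fell (5.66 and 5.95 to 2.555 and 3.50 CPM). Their part in the result was not tested.

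**Figure D2:**
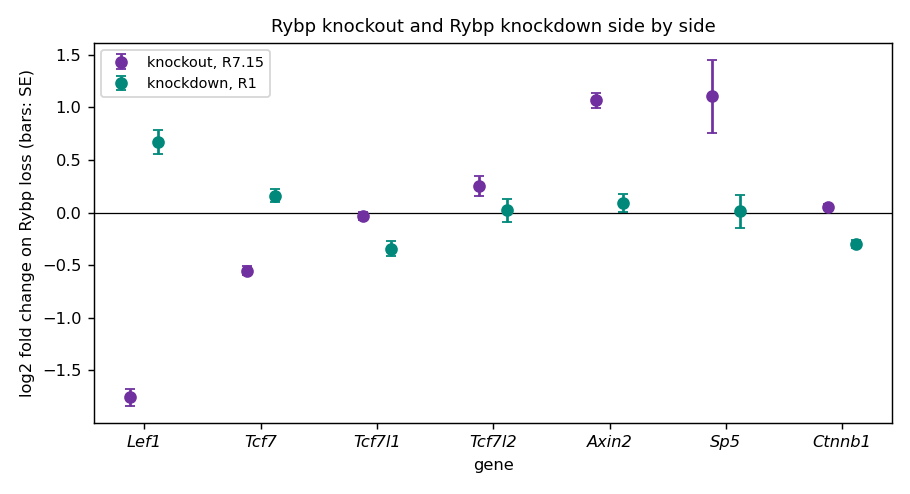
Log2 fold change of each gene after Rybp knockout in R7.15 ESCs and after Rybp knockdown in R1 ESCs, with bars for 1 standard error. Lef1 lies at -1.75 after knockout and at 0.67 after knockdown, Tcf7 at -0.55 and 0.16, and the rises of Axin2 (1.07) and Sp5 (1.10) after knockout have no counterpart after knockdown (0.09 and 0.01).

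The difference between knockout and knockdown was tested itself, as an interaction in a single edgeR fit over the 8 libraries. It was called for 6 of the 7 genes, beside 40.5% of the 18203 genes in that fit. The largest was that of Lef1, whose log2 fold change was higher by 2.40 (SE 0.14, adjusted p = 4.09e-12) after knockdown than after knockout. Tcf7 differed in the same direction by 0.69 (SE 0.08, adjusted p = 2.59e-07). For Axin2 and Sp5 the knockdown minus the knockout was -0.999 (SE 0.11, adjusted p = 6.67e-08) and -1.12 (SE 0.32, adjusted p = 0.00661). Tcf7l1 and Ctnnb1 differed by -0.34 and -0.38, and for Tcf7l2 the difference of -0.25 (SE 0.15, adjusted p = 0.178) was not called. The cell line, the means of depletion and the residual Rybp level (0.226 of the control after knockout, 0.420 after knockdown) cannot be told apart. The controls also start from different levels, since Lef1 was at 32.7 and 30.2 CPM in Rybp+/+ but at 9.30 and 10.1 CPM in shEV cells.

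The knockdown of Wdr5 shares its shEV libraries with the Rybp knockdown, counted again at a lower depth (19731613 to 21500931 counts per library), so the 2 comparisons are not independent. All 7 genes were called, 5 higher and 2 lower, beside 63.0% of the 15143 genes tested (31.5% in each direction). The TCF and LEF genes rose, and both feedback genes fell. Lef1 had 8.84 and 9.57 CPM in shEV and 21.7 and 25.0 CPM in shWdr5 libraries, a fold of 2.54 (log2 fold change 1.34, SE 0.11, adjusted p = 2.23e-10). Tcf7 went from 77.0 and 87.2 to 132 and 140 CPM (fold 1.66, log2 fold change 0.73). Tcf7l2, at 11.0 and 12.3 against 18.5 and 17.2 CPM, also stood clear of its controls (log2 fold change 0.61, adjusted p = 2.55e-05). The rise of Tcf7l1 was smaller, from 81.7 and 96.6 to 108 and 112 CPM (log2 fold change 0.31, SE 0.06, adjusted p = 0.000232).

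Axin2 had 21.4 and 23.8 CPM in shEV and 12.7 and 14.2 CPM in shWdr5 libraries, or 0.596 of the control (log2 fold change -0.75, SE 0.10, adjusted p = 8.01e-07). Sp5 fell further, from 6.55 and 9.62 to 2.85 and 2.64 CPM (0.342 of the control, log2 fold change -1.55, SE 0.20, adjusted p = 4.04e-07). Both shWdr5 libraries lay under both controls for each gene. Ctnnb1 had 858 and 875 against 940 and 914 CPM, and its log2 fold change of 0.10 (adjusted p = 0.0361) lost its call without shEV replicate 1 (adjusted p = 0.0842), without shWdr5 replicate 1 (0.300) or replicate 2 (0.0970), and with other size factors. Wnt ligands were again called mostly higher, with 10 higher and 1 lower of 13 tested, while receptors had 4 higher and 8 lower of 15 and the secreted or surface inhibitors 3 higher and 6 lower of 10. The other direct or feedback targets had 1 higher and 5 lower of 9. Over the whole list the numbers were even, with 34 higher and 36 lower of 89 (78.7%, median log2 fold change -0.08). Wnt3 rose from 0.702 and 0.607 to 13.2 and 11.8 CPM (log2 fold change 4.24), Wnt8a from 0.468 and 0.203 to 6.21 and 5.38 CPM (4.07) and Wnt9a from 1.03 and 0.911 to 11.2 and 12.9 CPM (3.62). Trophectoderm markers summed to 86.3 and 95.4 CPM in shEV and 234 and 245 CPM in shWdr5 libraries, with 3 of 5 tested higher and 1 lower. Tfap2c carried most of this rise (69.6 and 76.8 to 202.5 and 211 CPM). Krt7 and Gata3 were also higher, Eomes was lower, Cdx2 had no call and Elf5 was not tested. Primitive endoderm markers went from 10.3 and 13.7 to 34.9 and 34.2 CPM with 4 of 6 higher and 0 lower, and ESC markers from 7521 and 7661 to 6295 and 6309 CPM with 2 of 9 higher and 6 lower. Their part in the result was not tested.

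**Figure D3:**
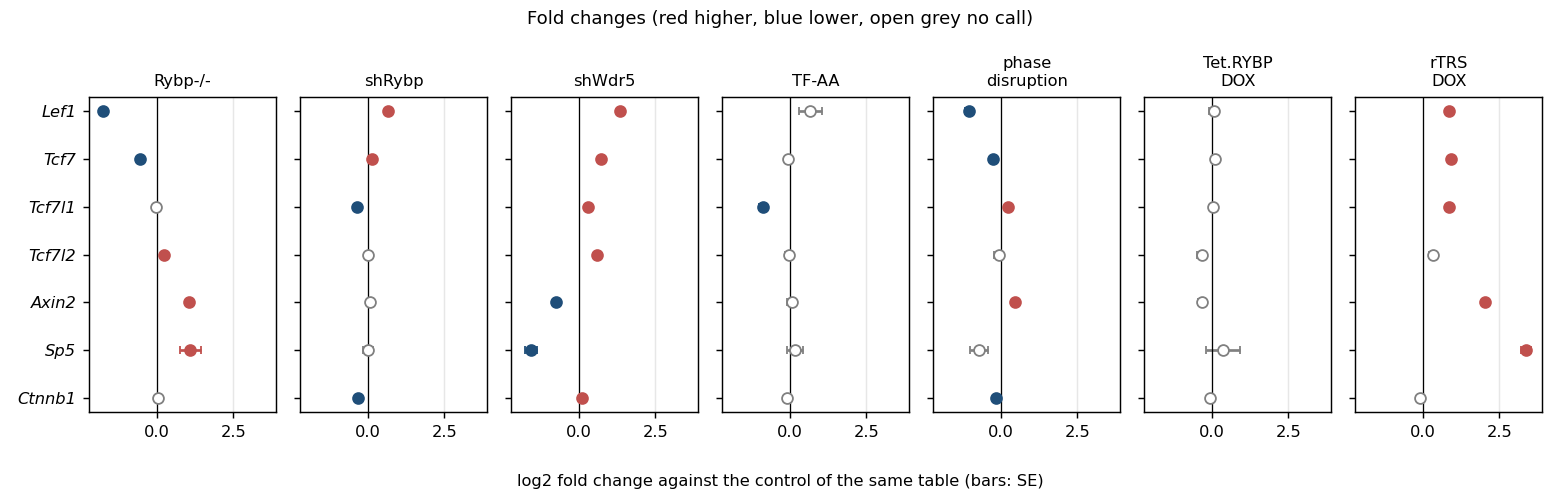
Log2 fold change of each gene against the control of its own table, in 7 panels, with bars for 1 standard error, red for genes called higher, blue for genes called lower and open grey for no call. The panels run from 0 called genes (Tet.RYBP DOX) to 7 (shWdr5), and the rTRS DOX panel holds the largest values, 3.37 for Sp5 and 2.03 for Axin2.

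The comparison of the RYBP.21aa deletion with WT.RYBP asks whether the deleted stretch matters when RYBP is supplied again, and Rybp itself had 749 and 753 CPM in WT.RYBP and 662 and 626 CPM in phase disruption cells. Lef1, Tcf7 and Ctnnb1 fell and Axin2 and Tcf7l1 rose. Lef1 had 30.7 and 32.6 CPM in WT.RYBP and 13.0 and 17.7 CPM in phase disruption libraries, 0.486 of the control (log2 fold change -1.04, SE 0.12, adjusted p = 6.79e-09). Tcf7 went from 70.0 and 72.4 to 58.7 and 61.5 CPM (log2 fold change -0.24, SE 0.07, adjusted p = 0.0051). Axin2 had 24.1 and 24.0 CPM in WT.RYBP and 33.5 and 32.6 CPM in phase disruption libraries (fold 1.37, log2 fold change 0.46, SE 0.09, adjusted p = 0.000196). For these 3 genes the groups did not overlap. Tcf7l1 rose from 76.4 and 76.7 to 90.9 and 88.4 CPM (log2 fold change 0.23, adjusted p = 0.00436), a call lost without WT.RYBP replicate 1 (adjusted p = 0.0612) or replicate 2 (0.0525), and the call of Tcf7 was lost without WT.RYBP replicate 2 (adjusted p = 0.0700).

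Sp5 was not called in this pair although its groups did not overlap, at 54 and 51 reads (3.40 and 3.18 CPM) in WT.RYBP and 29 and 31 reads (1.97 and 2.08 CPM) in phase disruption libraries. Its log2 fold change was -0.70 (SE 0.30, adjusted p = 0.0698). Ctnnb1 fell from 885 and 888 to 773 and 816 CPM (log2 fold change -0.16, adjusted p = 0.00265), and Tcf7l2 had 12.9 and 12.2 against 11.7 and 12.2 CPM. With 2 higher and 3 lower, 5 of the 7 genes were called, beside 33.0% of the 14575 genes tested (16.1% higher and 17.0% lower). Of the wider list 14 of 88 tested were higher and 19 lower (37.5%), with 3 of the 4 cadherin partners of β-catenin and 5 of the 15 cytoplasmic components lower. Wnt3a rose from 7 and 10 to 23 and 29 reads (log2 fold change 1.71) and Wnt7b from 3.77 and 5.74 to 12.1 and 10.5 CPM (1.24), while Notum, which inactivates Wnt proteins, fell from 4.59 and 5.24 to 2.11 and 1.81 CPM (-1.32). Fibroblast markers summed to 430 and 423 CPM in WT.RYBP and 343 and 366 CPM in phase disruption cells, with 0 higher and 3 lower of 6. Trophectoderm markers moved the other way, from 141 and 137.5 to 218 and 225 CPM with 3 of 5 tested higher and 0 lower, and neural markers went from 184 and 165 to 143 and 141 CPM with 1 of 2 tested higher and 1 lower. Tfap2c made up most of the former sum (119.5 and 118.7 to 188 and 195 CPM). The latter was mostly Nes (180 and 161 to 135.5 and 134.7 CPM), while Pax6 rose (4.22 and 4.49 to 7.40 and 5.715 CPM). Their part in the result was not tested.

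The TF-AA mutation was set against WT ESC. Only Tcf7l1 was called, beside 30.5% of the 14456 genes tested (14.4% higher and 16.1% lower). It had 37.5 and 35.1 CPM in WT ESC and 19.9 and 19.4 CPM in TF-AA libraries, 0.542 of the control (log2 fold change -0.88, SE 0.11, adjusted p = 7.87e-07). Lef1 had few reads, with 21 and 26 against 43 and 28 reads, and its log2 fold change of 0.67 (SE 0.37, adjusted p = 0.188) was not called. Tcf7 (45.9 and 50.2 against 46.6 and 45.5 CPM), Tcf7l2 (15.5 and 14.9 against 14.4 and 15.4 CPM), Axin2 (15.1 and 13.1 against 13.0 and 16.5 CPM) and Sp5 (3.25 and 2.57 against 3.23 and 3.36 CPM) overlapped between the groups. Ctnnb1 had 911 and 909 against 866 and 848 CPM (log2 fold change -0.09, adjusted p = 0.383). Of the wider list, 12 of 80 tested were higher and 15 lower (33.8%), and Wnt ligands had 6 higher and 0 lower of 8. Wnt6 rose from 39 and 17 to 89 and 72 reads (log2 fold change 1.60), Nkd1, an inhibitor of Dishevelled, from 14 and 25 to 42 and 49 reads (1.30) and Wnt5a from 19 and 23 to 41 and 48 reads (1.16). Fibroblast markers summed to 11.7 and 11.0 CPM in WT ESC and 24.0 and 24.7 CPM in TF-AA libraries, with 3 of 3 tested higher and Col3a1 and Dcn at 0. Postn had 0 and 0 against 1 and 0 reads. Primitive streak markers went from 3.49 and 3.21 to 10.6 and 9.50 CPM with 1 of 3 tested higher, primitive endoderm markers from 5.64 and 5.88 to 9.84 and 9.66 CPM with 1 of 4 tested higher, trophectoderm markers from 42.9 and 44.5 to 53.5 and 49.9 CPM with 2 of 3 tested higher, and neural markers from 18.5 and 22.0 to 28.9 and 29.1 CPM with 1 of 2 tested higher and 1 lower. Tfap2c made up most of the trophectoderm sum (33.15 and 34.98 to 43.5 and 38.8 CPM). Nes carried the neural rise (16.2 and 20.2 to 28.5 and 29.1 CPM), and Pax6 fell from 49 and 38 to 9 and 0 reads. Their part in the result was not tested.

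Induction of RYBP in J1 ESCs is the reverse of its loss. It gave a 3.77-fold rise of Rybp and no call among the 7 genes, beside 6.02% of the 14937 genes tested by edgeR (3.63% higher and 2.39% lower). At an unadjusted p under 0.05 the same edgeR test held 2 of them, Tcf7l2 and Axin2, and DESeq2 called 0. Axin2 had 17.7 and 14.3 CPM with vehicle and 12.2 and 13.4 CPM with DOX (log2 fold change -0.32, SE 0.14, adjusted p = 0.204). Tcf7l2 had 16.7 and 14.1 against 12.9 and 11.8 CPM (log2 fold change -0.33, SE 0.14, adjusted p = 0.185). For both genes the groups did not overlap, yet the vehicle libraries differed from each other by more than the groups' nearest libraries. Without vehicle replicate 2, which leaves 1 control and takes the spread from the 2 DOX libraries alone, the adjusted p was 0.0418 for Axin2 (-0.46) and 0.0017 for Ctnnb1 (-0.09). Lef1 (11.6 and 10.7 against 12.0 and 11.4 CPM), Tcf7 (55.3 and 57.4 against 57.1 and 64.3 CPM), Tcf7l1 (28.5 and 26.3 against 29.4 and 27.1 CPM) and Sp5 (21 and 38 against 31 and 41 reads) overlapped. Of the wider list 3 of 80 were higher and 6 lower (11.2%). Wnt7b (log2 fold change 1.72) and the receptor gene Fzd8 (0.96) rose, and the secreted inhibitor Sfrp1 fell from 150 and 149 to 104 and 100 CPM (-0.56). Trophectoderm markers went from 33.5 and 32.8 to 45.9 and 44.7 CPM with 1 of 3 tested higher, and primitive streak markers from 6.87 and 6.81 to 12.9 and 10.3 CPM with 1 of 2 tested higher. Their part in the result was not tested.

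The libraries labelled rTRS DOX held the largest changes of the 7 genes in these tables. Sp5 had 3.50 and 2.48 CPM in NTC and 33.5 and 28.2 CPM in the libraries labelled DOX. Its level was 10.3 times that in NTC (log2 fold change 3.37, SE 0.16, adjusted p = 5.75e-09), and the reads behind it were 179 and 133 against 1739 and 1438. Axin2 had 8.86 and 8.38 against 35.1 and 35.4 CPM, a fold of 4.08 (log2 fold change 2.03, SE 0.10, adjusted p = 9.74e-09). Both feedback genes thus moved by more than any TCF or LEF gene. Tcf7 went from 73.1 and 75.3 to 143 and 139 CPM (log2 fold change 0.93, adjusted p = 1.97e-07), Tcf7l1 from 33.7 and 28.7 to 59.0 and 53.8 CPM (0.85, adjusted p = 1.22e-05) and Lef1 from 10.7 and 11.6 to 20.6 and 20.0 CPM (0.86, adjusted p = 4.66e-05). Each of these rises was a fold of 1.81 to 1.90, with the groups well apart. Tcf7l2 had 10.8 and 9.10 against 13.3 and 11.8 CPM (log2 fold change 0.33, SE 0.14, adjusted p = 0.0626), and with the spread taken from a single group its adjusted p was 0.0216 without NTC replicate 1 (0.46) and 0.0337 without DOX replicate 2 (0.42). Without that second DOX library, whose column is headed S5, the log2 fold changes were 3.49 for Sp5, 2.03 for Axin2, 0.95 for Tcf7, 0.92 for Tcf7l1 and 0.88 for Lef1. Ctnnb1 had 923 and 981 against 869 and 910 CPM and was not called (log2 fold change -0.10, adjusted p = 0.164). With 5 higher and 0 lower, the 7 genes stand beside 43.4% of the 16291 genes tested that were called in either direction, with 23.0% higher and 20.4% lower.

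The wider list in the rTRS pair had 39 higher and 12 lower of 93 tested (54.8%), with a median log2 fold change of 0.35. Ligands had 9 higher and 0 lower of 16, receptors 8 higher and 1 lower of 15, and all 4 cadherin partners of β-catenin were higher. Wnt3 rose from 1.62 and 1.06 to 23.7 and 25.4 CPM (log2 fold change 4.20) and Dkk1, a secreted inhibitor that binds LRP receptors and is itself a Wnt target, from 0.196 and 0.205 to 5.97 and 5.62 CPM (4.84). Wnt8a had 734 and 753 reads in the libraries labelled DOX against 2 and 32 in NTC, so its control libraries differ strongly and its log2 fold change of 5.47 rests on them. ESC markers moved with these results, from 6715 and 6543 to 4214 and 4033 CPM in sum with 7 of 9 lower. Primitive streak markers went from 2.45 and 1.77 to 8.72 and 8.03 CPM with 2 of 5 higher, primitive endoderm markers from 8.61 and 6.91 to 21.6 and 20.8 CPM with 1 of 5 tested higher, trophectoderm markers from 131 and 135 to 199 and 192 CPM with 4 of 5 tested higher, and neural markers from 18.4 and 15.0 to 48.2 and 45.7 CPM with 1 of 2 tested higher and 1 lower. Their part in the result was not tested.

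Across the 49 pairs of gene and comparison, 17 were called higher, 10 lower and 22 in neither direction. The rTRS pair, whose direction rests mainly on the labels, gave 5 of the 17. Without it 12 were higher and 10 lower of 42, and with its direction turned 12 would be higher and 15 lower of 49. Lef1, Tcf7 and Tcf7l1 were each called higher in 3 comparisons and lower in 2, or in 2 and 3 with rTRS turned. Axin2 was higher in 3 and lower in 1 (2 and 2 with rTRS turned), Sp5 higher in 2 and lower in 1 (1 and 2 with rTRS turned), Ctnnb1 higher in 1 and lower in 2, and Tcf7l2 higher in 2 and lower in 0. Over the 28 table columns, with log2 CPM centred within each table, Lef1 and Tcf7 had a Pearson r of 0.814 and Axin2 and Sp5 one of 0.852, while Lef1 and Axin2 had -0.23. These values describe columns that share tables and controls, with the shEV libraries counted in 2 of the tables, and carry no test. Among the 13126 genes tested in all tables, the genes whose columns were most like those of Lef1 were Spice1 (r = 0.911), Plekha1 (0.876) and Fam116a (0.872). For Tcf7 they were Ptpn13 (0.954), Tmem106b (0.922) and Tjp1 (0.918), for Tcf7l1 Uap1l1 (0.926), Foxm1 (0.916) and Cd151 (0.911), and for Tcf7l2 Ino80b (0.915), Ube2j2 (0.859) and Arhgap23 (0.847). For Axin2 they were D19Wsu162e (0.902), BC023829 (0.897) and Myadm (0.890), for Sp5 Timm50 (0.888), Bcam (0.886) and Junb (0.886), and for Ctnnb1 Pip4k2b (0.890), Polb (0.889) and Vim (0.886).

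The ChIP-seq lists were then read at the 7 loci. In mm9 these are Lef1 at chr3:130813389-130927274, Tcf7 at chr11:52065873-52096681, Tcf7l1 at chr6:72576372-72739248, Tcf7l2 at chr19:55816300-56008144, Axin2 at chr11:108781663-108812097, Sp5 at chr2:70312980-70315786 and Ctnnb1 at chr9:120838334-120869625. A peak was assigned to a start when it reached within 2.5 kb of a coding start site of the gene, and a locus is the gene with 10 kb on either side. Every list is a single one per antibody and condition, from merged replicates or from 1 library, so no test between conditions was possible and the depth behind a peak is unknown. Fold enrichments are therefore set beside their percentile among all peaks of the same list, either for each peak or as a range over the genes. The RING1B lists of Tet.Rybp.Stat3 cells hold broad peak calls, while their STAT3 lists and those of H3K4me3, H3K27ac and WDR5 hold narrow ones. Peak widths are thus not comparable between those antibodies.

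RING1B, the catalytic subunit of Polycomb repressive complex 1, set Sp5 and Lef1 apart from the other 5 genes. At Sp5 a single RING1B peak of 7.565 to 8.621 kb, longer than the gene itself, covered the start in all 4 lists. Its fold enrichment was 69.6 in shEV, 56.4 in shStat3, 57.1 in DOX- and 47.7 in DOX+ cells, at percentiles 99.8, 99.3, 99.0 and 99.6. At Lef1 the peak over the start had a fold enrichment of 49.0 in shEV, 29.9 in shStat3, 48.7 in DOX- and 34.4 in DOX+ cells, and a width of 10.873, 8.302, 13.664 and 10.934 kb in that order, at percentiles 98.1, 91.5, 97.8 and 96.5. Axin2 was intermediate, with fold enrichments of 19.7, 12.4, 19.6 and 10.8 at percentiles 87.7, 76.7, 87.4 and 76.1. The strongest start-site peaks of Tcf7, Tcf7l1 and Tcf7l2 lay between 3.38 and 13.8, at percentiles from 15.0 to 81.9. Ctnnb1 had a start-site peak in DOX- (5.00, percentile 46.0) and DOX+ cells (3.08, percentile 11.7) and in neither of the other lists. All 7 genes had a RING1B peak in both Tet.Rybp.Stat3 lists and 6 in the other 2, beside 54.2% of 22372 coding genes in DOX-, 41.5% in DOX+, 45.4% in shEV and 41.1% in shStat3 cells. At Lef1, Tcf7, Tcf7l1, Tcf7l2, Axin2, Sp5 and Ctnnb1 alike the fold enrichment was lower in DOX+ than in DOX- cells, in lists of 12864 and 17021 peaks with median fold enrichments of 4.94 and 5.30. The percentile was also lower in DOX+ cells for 6 of them, and at Sp5 it was higher (99.6 against 99.0).

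STAT3, the factor activated by LIF in these cultures, had few peaks at these genes without DOX. In the R7.15 lists only Axin2 had a start-site peak, with a fold enrichment of 5.33 in Rybp+/+ (percentile 80.3) and 2.95 in Rybp-/- cells (percentile 6.1), beside 7.55% and 6.33% of coding genes. Lef1 had a peak outside this window in Rybp+/+ cells, centred at -2856 bp from its start (4.50, percentile 55.5). In DOX- cells Tcf7l2 (4.27, percentile 3.8), Axin2 (5.85, percentile 45.4) and Ctnnb1 (6.70, percentile 72.4) had one, beside 8.85% of coding genes. With DOX all 7 genes had at least 1, beside 56.9%, in a list that was itself longer (30663 against 2816 peaks). Sp5 then carried 4 peaks within 2.5 kb, the strongest at 14.0 (percentile 99.2), followed by Tcf7l2 at 9.16 (94.9), Lef1 at 7.14 (87.3) and Tcf7 at 6.47 (82.6). Axin2 (5.56), Tcf7l1 (5.34) and Ctnnb1 (5.02) lay between percentiles 63.1 and 72.5. The Ctnnb1 summit lies 4181 bp after the annotated gene start, at another coding start of the gene.

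The STAT3 summit shown upstream of Sp5 is the strongest of those before the gene start in DOX+ cells. Peaks were called over it both without and with DOX, with fold enrichments of 5.74 (percentile 41.0) and 12.1 (percentile 98.4). The summit lies at -2758 bp from the gene start, and the stretch of 100 bases either side, chr2:70310122-70310322 on the plus strand, holds 2 CTTTG cores at -2779 and -2725 and no TTCNNNGAA.
Sp5 STAT3 summit: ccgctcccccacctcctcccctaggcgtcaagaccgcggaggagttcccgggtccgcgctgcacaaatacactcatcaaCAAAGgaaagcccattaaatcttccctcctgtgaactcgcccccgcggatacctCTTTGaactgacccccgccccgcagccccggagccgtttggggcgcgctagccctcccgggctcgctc
Over the 29 STAT3 summits with DOX at the 7 loci, 12 windows of the same length hold CTTTG, 2 hold CTTTGAT and 1 holds TTCNNNGAA. Among all 30663 summits of that list the shares were 33.0%, 1.48% and 3.82%. The Axin2 intron stretch printed above lies at the summit of its STAT3 peak and holds both forms of the TCF core.

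**Figure D4:**
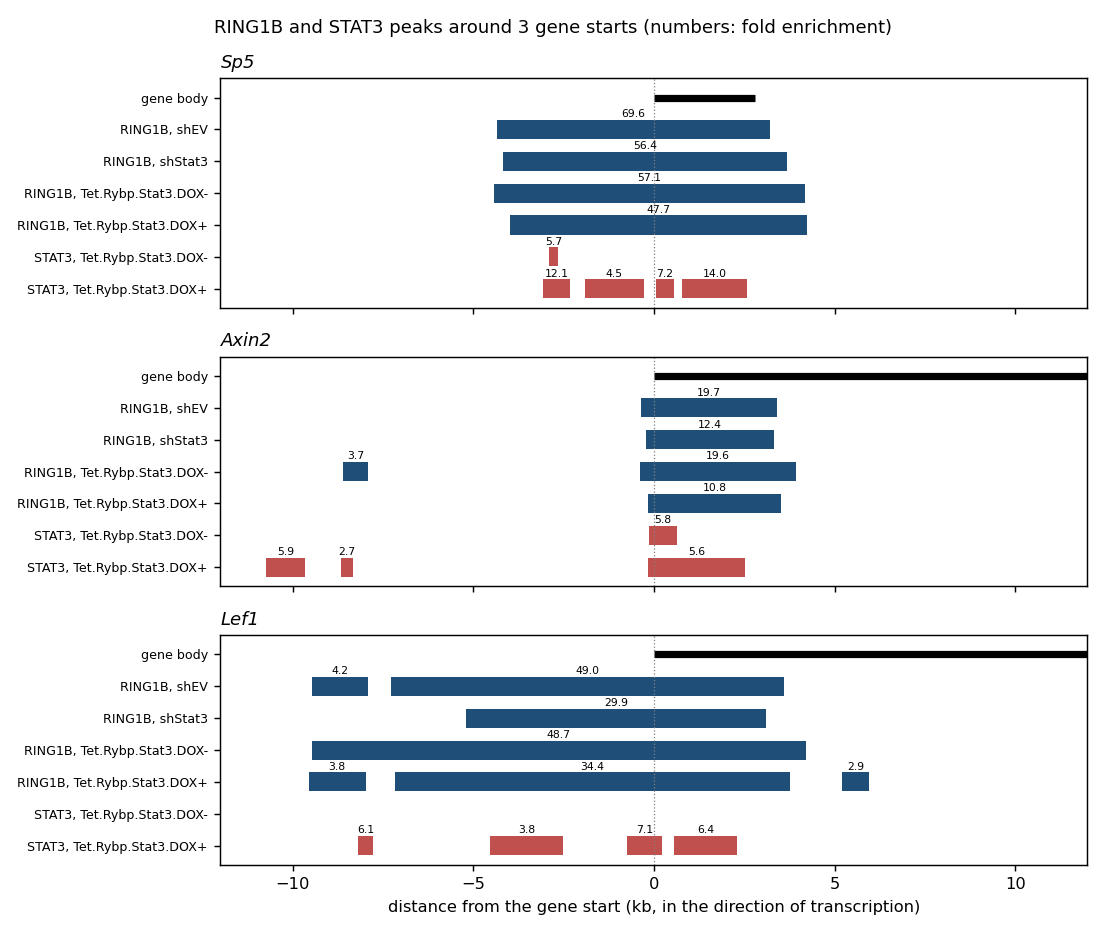
Peaks of the 4 RING1B lists (blue) and the 2 STAT3 lists of Tet.Rybp.Stat3 cells (red) within 12 kb of the annotated starts of Sp5, Axin2 and Lef1, by distance in kb in the direction of transcription, with the fold enrichment over each bar and the gene body in black. The RING1B peak at Sp5 spans the whole gene in all 4 RING1B lists (47.7 to 69.6), Axin2 carries a STAT3 bar at its start without and with DOX (5.85 and 5.56), Sp5 has 1 bar without (5.74) and 4 with DOX, and Lef1 has STAT3 bars with DOX only.

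H3K4me3, a mark of active and poised promoters, was present at the starts of all 7 genes in Rybp+/+ and Rybp-/- cells, beside 67.4% and 67.5% of coding genes. Its fold enrichment at Lef1 was 16.3 (percentile 65.9) in Rybp+/+ and 34.5 (80.0) in Rybp-/- cells, although the Lef1 RNA is lower in the latter. At Axin2 it was 45.6 (91.0) and 58.5 (97.1), and at Sp5 30.5 (78.4) and 31.3 (77.3). Tcf7 (60.5 and 56.3), Tcf7l1 (50.6 and 55.5), Tcf7l2 (58.4 and 65.3) and Ctnnb1 (50.6 and 45.5) lay at percentiles from 89.4 to 98.9 of their lists. WDR5 had a start-site peak at all 7 genes in both genotypes, beside 46.4% and 48.8%, with fold enrichments of 2.98 to 8.35 at percentiles from 5.6 to 80.9. At Axin2 it was 4.64 (38.8) in Rybp+/+ and 7.30 (74.0) in Rybp-/- cells, at Tcf7 7.24 (74.5) and 2.98 (5.6), and at Tcf7l2 8.35 (80.9) and 4.96 (47.7). The Tcf7l2 RNA was called higher in Rybp-/- cells, but only by a log2 fold change of 0.25, and this call was lost under 6 alternatives. For WDR5 the other 4 genes differed by less, with 4.45 (34.5) and 4.37 (35.6) at Lef1, 4.77 (42.0) and 4.39 (36.4) at Tcf7l1, 3.71 (16.5) and 4.07 (29.4) at Sp5 and 7.34 (75.1) and 7.13 (73.0) at Ctnnb1.

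H3K27ac, a mark of active promoters and enhancers, separated the genes the other way. Its lists come from R7.15 cells and those of RING1B from shEV, shStat3 and Tet.Rybp.Stat3 cells, so these marks were not read in the same cells. Lef1 and Sp5, the genes with the strongest RING1B peaks, had no H3K27ac peak at their loci in either genotype. With 50 kb either side Sp5 still had 0, and Lef1 had 7 in Rybp+/+ and 6 in Rybp-/- cells. The other 5 genes had one at a start, beside 51.0% of coding genes in Rybp+/+ and 54.1% in Rybp-/- cells. Start-site fold enrichments were 28.5 and 19.1 at Tcf7l1, 27.7 and 14.9 at Tcf7l2, 29.8 and 19.6 at Ctnnb1, 10.8 and 8.04 at Tcf7, and 22.9 and 21.1 at Axin2 in Rybp+/+ and Rybp-/- cells. These 5 values are lower in Rybp-/- cells, and so is the median of the whole list (3.86 against 4.12). The percentile was lower in Rybp-/- cells for Tcf7l1 (96.8 to 94.5), Tcf7l2 (96.6 to 91.9), Ctnnb1 (97.2 to 94.8) and Tcf7 (84.8 to 82.4), but higher for Axin2 (94.7 to 95.5). Tcf7l1 carried the most, with 47 peaks over 52.539 kb of its locus in Rybp+/+ and 36 over 40.346 kb in Rybp-/- cells. Ctnnb1 had 17 and 13 peaks over 25.843 and 17.515 kb, while 3 genes had more peaks in Rybp-/- cells, Tcf7 with 12 and 16 over 9.108 and 9.893 kb, Tcf7l2 with 7 and 11 over 10.606 and 11.577 kb and Axin2 with 2 and 7 over 1.679 and 4.870 kb. At a −log10 q of at least 5 these genes had 6 and 5 (Tcf7), 5 and 7 (Tcf7l2) and 2 and 3 (Axin2) peaks. The Rybp-/- list as a whole holds more peaks (62669 against 57642).

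**Figure D5:**
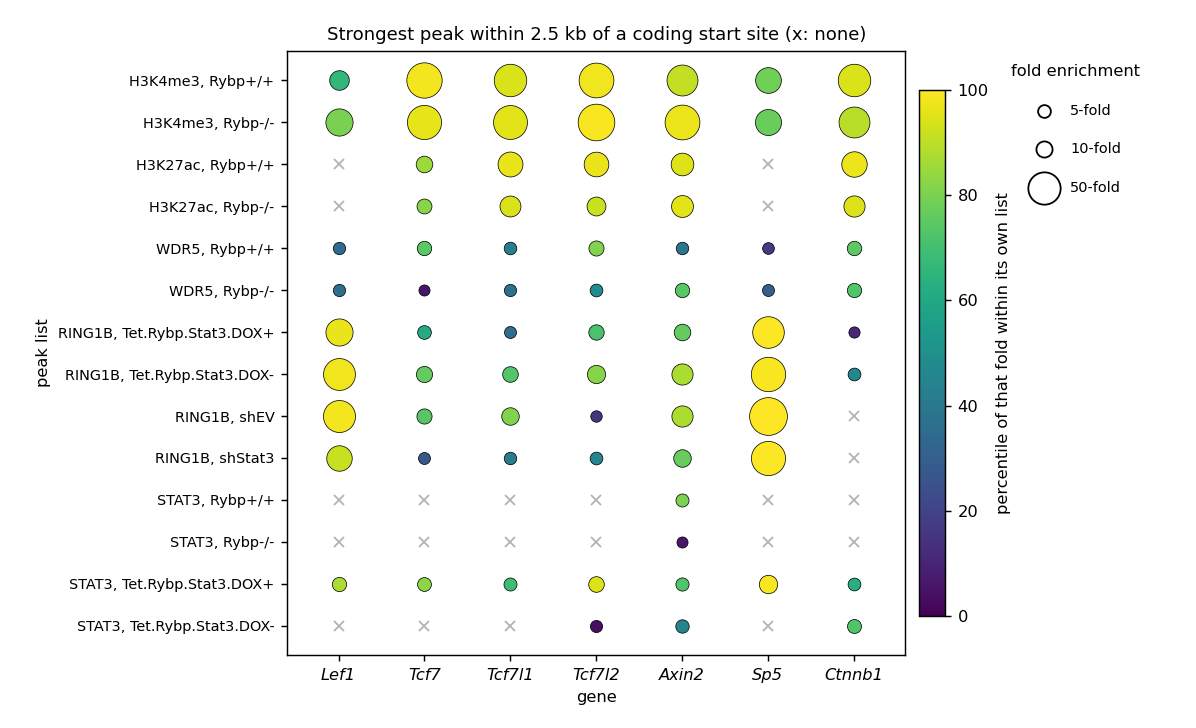
Strongest peak within 2.5 kb of a coding start site of each gene in each of 14 lists, with the circle area growing with fold enrichment, the colour giving its percentile among the peaks of its own list, and a cross for no peak. Sp5 and Lef1 have the largest RING1B circles (up to 69.6 and 49.0) and crosses for H3K27ac, and the STAT3 rows are filled for all 7 genes only in DOX+ cells.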

How the data were processed

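RNA-seq and ChIP-seq of mouse ESCs were analysed. The authors trimmed reads with Trim Galore, aligned them to mm9 with STAR, counted them per gene with HTSeq and deposited raw counts. In 6 of the 7 tables, rows that name no gene held 13.7% to 58.5% of reads and were left out. The deposited gene length (other) gave CPM per kb. The authors called peaks with MACS2 against input after merging replicates, and each deposited list gives a fold enrichment (ratio) and a −log10 q. The methods state an FDR of 0.01, but the lowest −log10 q in a list was 1.01 to 1.38. Counts were tested here with edgeR 4.0.16 (filterByExpr, TMM, quasi-likelihood test, two-sided, Benjamini-Hochberg over all genes tested, adjusted p under 0.05) in R 4.3.3, within a table on the 2 groups compared, except that the difference between knockout and knockdown was fitted over the 4 groups and 8 libraries of 2 tables. CPM are scaled by TMM. Scripts were tested on simulated data. Replicates differed beyond counting noise (chi-square per degree of freedom 2.20 to 14.9). Same-numbered libraries of the groups compared had correlated deviations of only -0.016 to 0.087, so numbers were not taken as pairs. Peaks were assigned by an overlap of at least 1 bp. Alternatives were DESeq2 1.42.0, other size factors, filters on low counts, a threshold on fold change, a replicate block, leaving out each library, and other windows and q thresholds for peaks. All 7 genes were named in every table. From a list of 103 Wnt pathway genes, counts were given, and per comparison up to 3 called genes with the largest absolute log2 fold change and a mean of at least 1 CPM were named. Marker lists were for ESCs, fibroblasts, primitive endoderm, trophectoderm, primitive streak and mesoderm, and neural cells. Sox1 of the 36 markers was not matched. For likeness, the 3 genes with the highest Pearson r were named for each gene. The 7 genes and all lists were chosen with earlier results of these data known. ChIP-seq of the WT ESC, TF-AA, WT.RYBP and phase disruption groups was not analysed here.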

Additional observations from a re-analysis of the deposited data

Results flagged for a closer look

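The effect of Rybp loss differed between the knockout in R7.15 ESCs and the knockdown in R1 ESCs for 6 of the 7 genes, by an interaction test in edgeR with Benjamini-Hochberg adjustment. As the log2 fold change after knockdown minus that after knockout, the differences were 2.405 for Lef1, 0.688 for Tcf7, -0.335 for Tcf7l1, -0.999 for Axin2, -1.118 for Sp5 and -0.381 for Ctnnb1. Lef1 and Tcf7 were lower in both Rybp-/- libraries than in both controls and higher in both shRybp libraries than in both controls. In this fit 40.5% of all genes tested differed between the lines as well. Line and means of depletion cannot be told apart.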

How the results depend on the processing

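Of the 27 called pairs of gene and comparison, 21 kept their call and direction with DESeq2, other size factors, other filters, the replicate block and without each library in turn, and 0 reversed. Only 8 of the 27 also had an absolute log2 fold change above 1. Apart from that threshold, 6 lost their call under 1 to 6 alternatives, namely Tcf7l2 (6) and Sp5 (2) in Rybp-/- ESCs, Tcf7 in shRybp (5), Ctnnb1 in shWdr5 (5), and Tcf7l1 (2) and Tcf7 (1) in phase disruption cells. All 98 alternatives of the differences between knockout and knockdown kept their side of the threshold. Where a direction turned, the pair had no call. With upper quartile size factors the log2 fold changes were 0.03 (0.027) for Tcf7l1 in Rybp-/- and 0.017 and 0.05 for Tcf7 and Tcf7l2 in TF-AA cells. In shRybp, Sp5 had -0.006 with DESeq2 and -0.003 with RLE size factors. Leaving out 1 library gave -0.246 to 0.299 for Sp5 and -0.07 to 0.101 for Tcf7l2 in shRybp, -0.083 to 0.024 for Tcf7l2 and -0.119 to 0.227 for Axin2 in TF-AA, and -0.02 to 0.896 for Sp5 and -0.017 to 0.105 for Tcf7l1 in Tet.RYBP DOX cells.

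Requiring an absolute log2 fold change above 1 left 1330 genes in Rybp-/-, 2088 in shRybp, 2815 in shWdr5, 1176 in TF-AA, 986 in phase disruption, 135 in Tet.RYBP DOX and 1953 in rTRS DOX, and of the 7 genes 3, 0, 2, 0, 1, 0 and 2. DESeq2 called 2980 genes in phase disruption cells, against 4814. Without 1 library the genes called ranged from 2724 to 4767 in TF-AA and from 406 to 1566 in Tet.RYBP DOX (main values 4412 and 899), and the members called from 3 to 4 in Rybp-/-, from 3 to 5 in phase disruption and from 0 to 2 in Tet.RYBP DOX cells. The causes were not tested.

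Library numbers did not pair the samples. With the replicate block 5, 4, 7, 1, 5, 0 and 7 of the 7 genes were called in Rybp-/-, shRybp, shWdr5, TF-AA, phase disruption, Tet.RYBP DOX and rTRS DOX, and 7724, 9110, 9865, 5525, 5172, 1211 and 8559 genes in all. Tcf7l2 (log2 fold change 0.335, adjusted p = 0.0216) and Ctnnb1 (-0.098, adjusted p = 0.00185) were called in rTRS DOX only with it or with other alternatives.

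With 50 kb either side the loci held 65 and 64 H3K4me3 peaks in Rybp+/+ and Rybp-/-, 19, 16 and 13 RING1B peaks in DOX-, shEV and shStat3, and 46 STAT3 peaks in DOX+ cells. At a −log10 q of at least 5 they held 44 H3K27ac and 9 WDR5 peaks in Rybp-/- and 1, 0 and 1 STAT3 peaks in Rybp+/+, Rybp-/- and DOX- cells, and 0 and 1 genes kept a STAT3 peak at a start in Rybp-/- and DOX- cells. The H3K27ac and WDR5 counts of Rybp+/+ cells fell by a smaller share and are not given, so these numbers do not compare the genotypes. Within 5 kb of a start, 2 genes had a STAT3 peak in Rybp+/+ cells. Few reads limit Sp5 and, in the TF-AA pair, Lef1.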
